A study of Homo sapiens with 6 samples.

Results

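The small (40S) subunit of the human ribosome is built from 1 ribosomal RNA and a set of small subunit proteins, and the genes that encode those proteins are described here in T98G cells with and without knockdown of the protein kinase DYRK1A. The genes were taken by name: every gene of the deposited human table called RPS followed by a number, with an optional A or X, together with RPSA and FAU, which gave 32 of 23026 genes. Their protein products sit in the head of the subunit (14 genes) or in its body and platform (18 genes). FAU and RPS27A are each translated as a fusion, FAU with a ubiquitin-like protein and RPS27A with ubiquitin itself, from which the ribosomal protein is released.

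T98G is an established human glioblastoma cell line. Both groups were transduced with a lentivirus carrying a short hairpin RNA (shControl, or shDYRK1A directed against DYRK1A) and were selected with puromycin. Each group has 3 libraries, named 1A, 1B and 1C. Nothing in the labels says that the libraries of a group came from separate cultures, so p-values measure only the spread between these samples. RNA was extracted after Drosophila Kc167 cells had been added to every sample in a constant ratio to the T98G cells, and the fly reads serve as an external scale (the spike-in). In such bulk samples, fewer T98G cells in the mixture and less RNA per T98G cell cannot be told apart.

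A ribosome holds 1 copy of nearly every ribosomal protein, and small subunit proteins that find no partner in assembly are degraded, so the genes are usually described as a set that is expressed together. Many of their mRNAs begin with a C followed by a run of pyrimidines at the cap (the TOP tract), through which mTORC1 and LARP1 regulate their translation. Loss of 1 copy of several of them, RPS19 being the first to be recognised, causes Diamond-Blackfan anaemia, an inherited failure of red cell production.

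Depth was similar among libraries, between 33708297 and 42154438 human gene counts, with shDYRK1A-1B the shallowest and with the largest percentage of unmapped reads (15.6%, against 8.44 to 11.9% in the other 5). DYRK1A itself had 2227, 2234 and 1895 spike-in normalised counts in shControl-1A, 1B and 1C and 1482, 1056 and 1285 in shDYRK1A-1A, 1B and 1C. Each shDYRK1A library thus lay below each shControl library, as was so for 63.6% of all genes tested. The log2 fold change of DYRK1A was -0.73 with the spike-in, beside a median of -0.40 over all genes tested. As a share of human counts it was -0.31. Of 7 markers listed for a glioblastoma line, VIM, CD44 and FN1 were between 613 and 1975 CPM (counts scaled to a library total of 1e6), NES was between 1.29 and 2.02 CPM, and the astrocyte markers GFAP, S100B and SOX2 had at most 4 reads in any library. The summed level of 6 markers of other cell types was 1.42 to 2.81 CPM.

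The study is concerned with a palindromic 10-base promoter motif, TCTCGCGAGA. RefSeq promoter windows (GRCh38.p14, 250 bases before to 50 bases after each annotated start) were at hand for 25 of the 32 genes and were searched for it. Being a palindrome, it reads the same on both strands. RPS6 and RPS19 held an exact copy, and RPS3A, RPS15 and RPS28 a copy with 1 substitution. Of all 35116 windows in the same table, 0.424% held an exact copy and 1.28% a copy with at most 1 substitution. The 5 sites are shown because the fold changes of their genes turned out to span most of the range of the subunit. Capitals mark the 10 bases aligned to the motif, with 10 bases of flank on either side.
RPS6 (chr9:19380269-19380298, minus strand): cttctgctcaTCTCGCGAGAactgaaagcg
RPS19 (chr19:41860196-41860225, plus strand): ctttcggaacTCTCGCGAGAccctacgccc
RPS3A (chr4:151099596-151099625, plus strand): acgcctaagtTCTCGCGCGActcccacttc
RPS15 (chr19:1438359-1438388, plus strand): atgccggcagTCTCGCGATAactgcgcagg
RPS28 (chr19:8321424-8321453, plus strand): cgcggcgtggTATCGCGAGAcgggagtggg
Counted from 1 at the 5′ end of the motif, the substitutions were A8C in RPS3A, G9T in RPS15 and C2A in RPS28. The annotated start being position 0, the motif began at -52 in RPS6, -22 in RPS3A, -27 in RPS15 and -62 in RPS28, and at -49 or -198 in RPS19, which has 2 annotated starts. The other 20 genes with a window had 2 or more mismatches at their best position, which says only that these letters are not in that window.

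The start of transcription was examined in the same windows for the TOP tract. It was taken as at least 5 pyrimidines in a row, counted from a C within 5 bases of the annotated start. Of the 25 genes with a window 21 had such a run (84%), against 21.1% of all windows. Starts of 4 genes at the extremes of the fold changes are shown, with the run counted from that C in capitals.
RPS7 (chr2:3575246-3575275, plus strand): tttccgccctCCTCCTCgcgctgtttccgc
RPS18 (chr6:33272063-33272092, plus strand): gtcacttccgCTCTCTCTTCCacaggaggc
RPS28 (chr19:8321487-8321516, plus strand): aagcacgtgaCTCCTCTCCgccagaccgcc
FAU (chr11:65122119-65122148, minus strand): gccctcgcttCTTCCTCTTTCTCgactcca
Counted in this way, the runs in these 4 genes were 7, 11, 9 and 13 bases long. In RPS7 and FAU further pyrimidines stand directly before the capitals, so the whole stretch is longer and the marked C does not open it. RPS26, which is also at the upper end of the fold changes, had a run of 4 bases there. RPS15 and RPS29 had runs of 2 bases and RPS4X of 4, and a longer run elsewhere in the window was not searched for.

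Levels between genes were compared as CPM per kilobase of coding sequence (CPM per kb). In shControl, RPS20 (a head protein of the uS10 family) was the highest with 3062 ± 176 CPM per kb (SD, n = 3), followed by RPS18, RPS23, RPS14 and RPS27 between 2424 and 2659. RPS23, RPS14 and RPS27 lay closer together than their SDs of 99.9 to 151. At the other end stood RPS26 (545 ± 29.3), FAU (315 ± 15.7), RPS15A (177 ± 19.5) and RPS10 (3.68 ± 0.362). The same 4 genes were at the bottom in shDYRK1A, and RPS20 was again at the top with 3505 ± 406 CPM per kb. RPS3A moved from rank 15 in shControl to rank 20 in shDYRK1A, and RPS27 from rank 5 to rank 2, where its SD was 427. The levels of RPS10 and RPS15A are uncertain. RPS10 shares 39.4% of its exon bases on the same strand with RPS10-NUDT3, a read-through gene that had 0 counts in total, and its 11 annotated pseudogenes drew 1001 counts where RPS10 drew 354. The pseudogenes of RPS15A drew 9.40% of the counts of the gene and its pseudogenes together, those of RPSA 5.22%, of RPS2 5.13% and of RPS3A 3.94%. Across the 32 genes 413 annotated pseudogenes were counted apart. Reads that aligned to more than 1 place were counted for no gene. They made up 2.26% (shDYRK1A-1B) to 2.49% (shControl-1A) of the reads of a library. How many of them belong to single genes was not examined, so the level of any gene with pseudogenes carries this limit. Among the members 7 shared exon bases with another gene on the same strand, FAU with 21.6% of its exon bases and RPS2 with 14.5%.

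The first comparison asked how the small subunit genes behaved after DYRK1A knockdown when each library was scaled by the spike-in. The summed normalised count of the 32 genes (in units of 1e6) was 1.25, 1.19 and 0.997 in shControl-1A, 1B and 1C and 0.891, 0.857 and 0.790 in shDYRK1A-1A, 1B and 1C. The group values were 1.14 ± 0.131 and 0.846 ± 0.0510 (SD, n = 3), a log2 ratio of -0.44, and the groups did not overlap. RPS10 fell under the filter on low values (a mean above 10 CPM), and the remaining 31 were among the 9697 genes tested. Each of the 31 had a negative log2 fold change, from -0.77 for RPS3A to -0.11 for FAU, with a median of -0.37. The median of all 9697 genes tested was -0.40.

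By the quasi-likelihood test of edgeR (adjusted p below 0.05), 21 of the 31 genes (67.7%) were lower in shDYRK1A, where 63.4% of all genes tested were. None was higher by edgeR, by DESeq2 or at an unadjusted p below 0.05, and 1.08% of all genes were called higher. The normalised counts of shDYRK1A lay entirely below those of shControl for 21 of the 31, beside 63.6% of all genes, and entirely above for none, beside 1.59%. The count of small subunit genes was thus close to the share of all genes. RPS15A and RPS21 were called although their groups overlapped, and RPS9 and RPS16 did not overlap and were not called. Genes of the same library are all divided by its single size factor. With a log2 fold change below -0.7 asked for as well, the threshold of the study, RPS3A alone of the 31 genes was called. Of the 9697 genes tested, 1386 passed the same threshold.

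The number called lower depended on single libraries, among which shControl-1C had the fewest normalised counts of its group. It was 13 without shControl-1A, 14 without shControl-1B, 30 without shControl-1C and 12 without shDYRK1A-1C, and 21 and 18 without shDYRK1A-1A and 1B. Whichever library was left out, 12 genes were lower, among them RPS3, RPS3A, RPS4X, RPS6, RPS7, RPS13, RPS18, RPS23, RPS24, RPS25 and RPS27A. The 12 are also those with the lowest fold changes in the fit of all libraries. No share of all genes called in the same fits is set beside these counts. Their swing therefore cannot be read as particular to the subunit.

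Among the body and platform genes RPS3A was the lowest. RPS3A (ENSG00000145425, chromosome 4, 151099573 to 151104652, plus strand on GRCh38) encodes a platform protein near the exit of the mRNA channel. Its normalised count was 66773, 65307 and 52836 in shControl-1A, 1B and 1C and 38796, 34874 and 35060 in shDYRK1A-1A, 1B and 1C. The means were 61639 ± 7658 and 36243 ± 2213 (SD, n = 3), and the highest shDYRK1A library lay well below the lowest shControl library. The log2 fold change was -0.77 (standard error, SE, 0.13, adjusted p = 2.56e-08), so that shDYRK1A stood at 58.8% of shControl. Of all genes tested, 10.0% had a lower log2 fold change.

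RPS7 (ENSG00000171863, chromosome 2, 3575205 to 3580920, plus strand), whose protein binds MDM2 when it is not in a ribosome, had normalised counts of 36772, 31856 and 29397 in shControl-1A, 1B and 1C and 21804, 20849 and 19041 in shDYRK1A-1A, 1B and 1C. The groups did not overlap, and the log2 fold change was -0.67 (SE 0.13, adjusted p = 2.07e-06). RPS6 (ENSG00000137154, chromosome 9, 19375715 to 19380254, minus strand), the protein phosphorylated by the S6 kinases, had 62511, 58034 and 50287 in shControl-1A, 1B and 1C and 41142, 38761 and 35847 in shDYRK1A-1A, 1B and 1C, again without overlap and with a log2 fold change of -0.56 (SE 0.13, adjusted p = 4.72e-05).

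RPS18 (ENSG00000231500, chromosome 6, 33272010 to 33276510, plus strand), a head protein that contacts the large subunit, had 60508, 55942 and 48530 in shControl-1A, 1B and 1C and 38635, 37363 and 34118 in shDYRK1A-1A, 1B and 1C. It was the lowest of the head genes, with a log2 fold change of -0.58 (SE 0.13, adjusted p = 2.45e-05) and no overlap.

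The 4 genes with the fold changes nearest to 0 overlapped between the groups. FAU (ENSG00000149806, chromosome 11, 65120628 to 65122473, minus strand) had 6287, 5673 and 5109 in shControl-1A, 1B and 1C and 5632, 5380 and 4838 in shDYRK1A-1A, 1B and 1C, and 2 of the 3 shDYRK1A libraries lay within the shControl range. Its log2 fold change was -0.11 (SE 0.14, adjusted p = 0.481). RPS28 (ENSG00000233927, chromosome 19, 8321158 to 8323340, plus strand), a small head protein close to the mRNA exit, had 10539, 9609 and 8249 in shControl-1A, 1B and 1C and 8920, 9301 and 7234 in shDYRK1A-1A, 1B and 1C and a log2 fold change of -0.16 (SE 0.13, adjusted p = 0.280).

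RPS26 (ENSG00000197728, chromosome 12, 56041351 to 56044697, plus strand), which lies at the mRNA exit, had 9594, 8780 and 7251 in shControl-1A, 1B and 1C and 7783, 7978 and 6951 in shDYRK1A-1A, 1B and 1C and a log2 fold change of -0.17 (SE 0.13, adjusted p = 0.235). RPS29 (ENSG00000213741, chromosome 14, 49570984 to 49599164, minus strand), a zinc-binding head protein and the shortest of the set, had 5657, 4541 and 4325 in shControl-1A, 1B and 1C and 4319, 4488 and 3658 in shDYRK1A-1A, 1B and 1C and a log2 fold change of -0.22 (SE 0.14, adjusted p = 0.143). In all 4 genes shControl-1C, the lowest shControl library, lay among the shDYRK1A values. Without it RPS26 (log2 fold change -0.28, adjusted p = 0.0236), RPS28 (-0.25, adjusted p = 0.0424) and RPS29 (-0.30, adjusted p = 0.0250) were called lower by edgeR, while FAU was not called in any of the 6 fits.

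**Figure D1:**
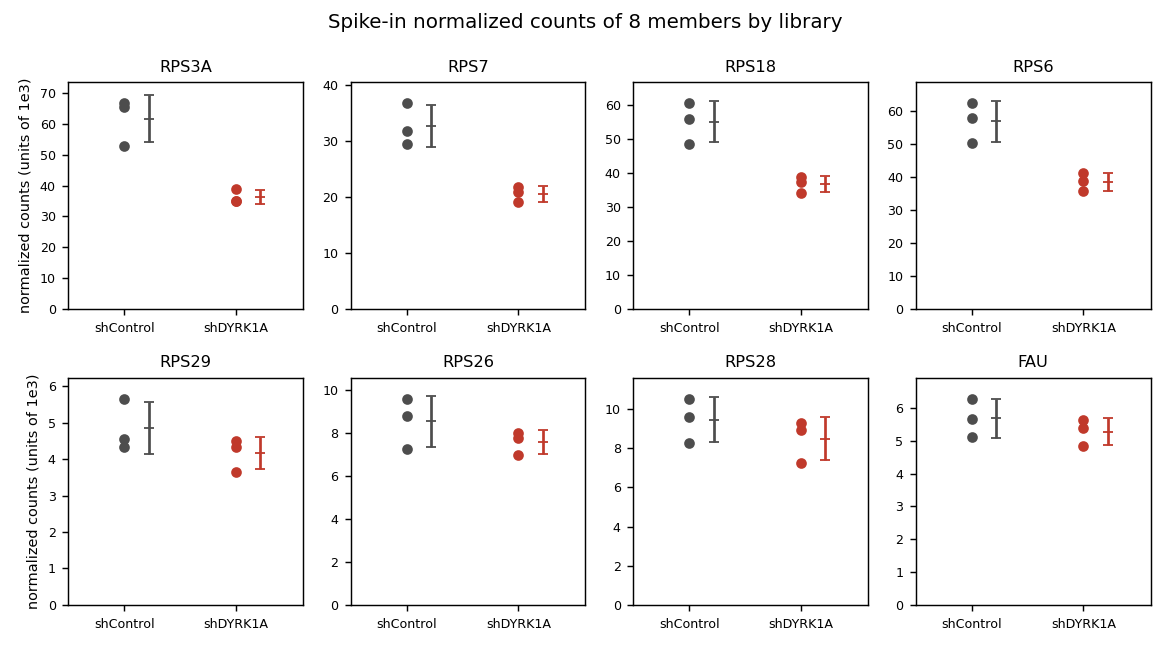
Spike-in normalised counts (units of 1e3, vertical axes starting at 0) of 8 small subunit genes, each dot a library, with the mean and SD of 3 libraries beside it. In the upper row, RPS3A, RPS7, RPS18 and RPS6, no shDYRK1A library reaches the lowest shControl library, whereas RPS29, RPS26, RPS28 and FAU in the lower row overlap between the groups.

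By position in the subunit, 14 of the 18 body and platform genes and 7 of the 13 tested head genes were called lower, with median log2 fold changes of -0.39 and -0.31. These are 77.8% and 53.8%, above and below the 63.4% of all genes called lower. Further body and platform genes called lower were RPS24 (-0.57), RPS13 (-0.56), RPS23 (-0.55), RPS4X (-0.46), RPS15A (-0.39), RPS2 (-0.38), RPS14 (-0.37), RPSA (-0.30) and RPS21 (-0.28). RPS23 reaches into the decoding centre, RPS2 lines the mRNA entry, RPS14 is the platform protein lost in the 5q- syndrome, and RPSA is also known as the laminin receptor. RPS9, a protein of the mRNA entry channel, and RPS27 had log2 fold changes of -0.26 and -0.23 and did not pass.

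Further head genes called lower were RPS27A (-0.57), RPS25 (-0.52), RPS3 (-0.50), RPS12 (-0.35) and RPS19 (-0.31). RPS3 forms part of the mRNA entry, RPS25 is needed by several viral internal ribosome entry sites, and RPS19 is the gene most often mutated in Diamond-Blackfan anaemia. The head genes RPS16 (-0.27), RPS20 (-0.24) and RPS15 (-0.22) did not pass the test, RPS16 by a narrow margin (adjusted p = 0.0507). RPS10, a protein of the beak, was left out of the test. Its normalised count was 77.9, 89.6 and 78.9 in shControl-1A, 1B and 1C and 44.4, 38.9 and 33.8 in shDYRK1A-1A, 1B and 1C, a mean of 82.1 ± 6.52 against 39.0 ± 5.33, and with no filter beyond 1 count its log2 fold change was -1.07 (SE 0.27, adjusted p = 8.28e-04).

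The set was divided in 3 other ways. Of the 15 genes with a bacterial counterpart (uS names) 9 were called lower, and of the 16 tested without one (eS names) 12 were, with median log2 fold changes of -0.34 and -0.45. Of the 9 tested genes of the Diamond-Blackfan list, 5 were lower, with a median of -0.31. The shares called lower, 60%, 75% and 55.6%, lie around the 63.4% of all genes. The 2 fusion genes stood apart from each other, RPS27A at -0.57 and FAU at -0.11. No test of the difference between such divisions was made.

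The study also marked the genes whose promoters carried DYRK1A in T98G chromatin, and that marking is used here only to divide the set. The median log2 fold change was -0.34 over the 11 marked genes and -0.40 over the 20 others tested, a difference of 0.06, while the means differed by 0.01. Marked genes stood at both ends of the ranking, RPS3A and RPS7 as the lowest of all and RPS28 and RPS29 among the 4 highest. The 5 genes whose promoter sequences are printed above are all marked genes. Their log2 fold changes were -0.77 for RPS3A, -0.56 for RPS6, -0.31 for RPS19, -0.22 for RPS15 and -0.16 for RPS28. The sites were shown because of this spread, so it adds no separate observation.

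The next comparison set the spike-in aside and asked whether the share of small subunit mRNAs among human mRNAs differed. The 32 genes took 2.60, 2.49 and 2.49% of human gene counts in shControl-1A, 1B and 1C and 2.43, 2.74 and 2.37% in shDYRK1A-1A, 1B and 1C. Counting error was small beside these differences, the 95% Wilson interval of shDYRK1A-1B, which covers counting error only, running from 2.74 to 2.75%. The means were 2.52 ± 0.0631% and 2.52 ± 0.200% (SD, n = 3). shDYRK1A-1B, the shallowest library, was the highest of all 6 while the other 2 shDYRK1A libraries were the lowest, and without it the difference was -0.12 percentage points. The part of its depth and unmapped reads in this was not tested.

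Summed counts of the small subunit genes amounted to 0.675, 0.675 and 0.672 of those of the 47 large subunit genes in shControl and to 0.672, 0.678 and 0.668 in shDYRK1A, means of 0.674 ± 0.00192 and 0.672 ± 0.00513. The groups overlapped. The difference of the mean log2 counts of the 2 lists, in which every gene has the same weight, was -0.15, -0.16 and -0.16 in shControl and -0.11, -0.09 and -0.13 in shDYRK1A, without overlap, so that the typical small subunit gene stood slightly higher against the typical large subunit gene in shDYRK1A. The large subunit genes called lower with the spike-in were 39 of 45 tested (86.7%), beside 63.4% of all genes, with a median log2 fold change of -0.43 beside -0.40 over all genes.

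**Figure D2:**
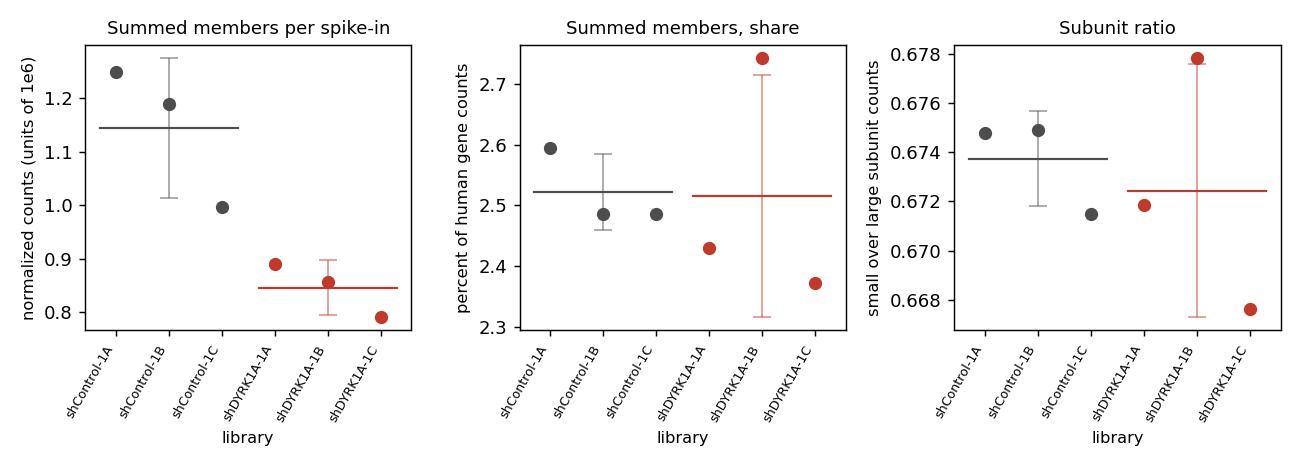
Summed small subunit counts in each of the 6 libraries, as spike-in normalised counts (units of 1e6), as a percentage of human gene counts, and as a ratio to the summed large subunit counts, with the group mean (line) and SD (bar, n = 3). The vertical axes do not start at 0. The groups separate in the first panel only, and shDYRK1A-1B is the highest library in the other panels.

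With libraries scaled by their human gene counts, the fold changes of the 31 genes moved up by nearly the same amount, and the order was kept except that 2 neighbours in it changed places. The median became 0.06, beside 0.02 for all genes tested. By edgeR 4 of the 31 genes were lower, where 24.8% of all genes were, and 9 of the 31 were higher, where 30.2% of all genes were. The groups did not overlap for 2 genes on the lower side, beside 29.3% of all genes, and for 7 on the higher side, beside 33.5%. Scaling by TMM or by the median of ratios over the human genes left 4 lower and 5 higher. The share of all genes called under these 2 scalings is not set beside these counts.

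RPS3A, RPS7 and RPS18 were among the lower genes. RPS3A took 1388, 1365 and 1317 CPM in shControl-1A, 1B and 1C and 1058, 1117 and 1053 in shDYRK1A-1A, 1B and 1C, a log2 fold change of -0.33 (SE 0.04, adjusted p = 4.57e-05). RPS7, with 765, 666 and 733 CPM against 595, 668 and 572, overlapped by 1 library, shDYRK1A-1B, and had a log2 fold change of -0.24 (SE 0.06, adjusted p = 0.00737). RPS18 had a log2 fold change of -0.15 (SE 0.06, adjusted p = 0.0396).

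The higher genes included RPSA (0.13), RPS16 (0.16), RPS9 (0.17), RPS20 (0.19), RPS15 (0.21), RPS26 (0.26), RPS28 (0.28) and FAU (0.32). FAU took 131, 119 and 127 CPM in shControl and 154, 172 and 145 in shDYRK1A, with no overlap and a log2 fold change of 0.32 (SE 0.06, adjusted p = 9.74e-04). RPS26 took 200, 184 and 181 CPM against 212, 255 and 209, and each shDYRK1A library was above each shControl library with a log2 fold change of 0.26 (SE 0.07, adjusted p = 0.00791). RPS28 overlapped, with 219, 201 and 206 CPM against 243, 298 and 217 and a log2 fold change of 0.28 (SE 0.09, adjusted p = 0.0189). None of these was called lower with the spike-in except RPSA, whose log2 fold change there was -0.30.

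RPS6 did not pass on this scale, with 1300, 1213 and 1254 CPM against 1122, 1241 and 1076 and a log2 fold change of -0.13 (SE 0.05, adjusted p = 0.0551). Of the 31 genes 19 had the opposite sign to that with the spike-in.

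shDYRK1A-1B weighed on these counts. Without it 12 genes were lower and 6 higher on the share of human counts, when 25.3% and 34.4% of all genes were. The 12 were the same genes that were lower with the spike-in in every fit leaving out a library. Since the 2 scales nearly share their order of genes, this match adds no separate evidence. Without shControl-1A or shDYRK1A-1C 2 genes were lower, and without shControl-1B or shControl-1C 4 were higher. For these fits no share of all genes is set beside the counts. RPS3A and RPS7 were lower, and FAU, RPS15 and RPS26 higher, in all 6 fits leaving out a library.

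**Figure D3:**
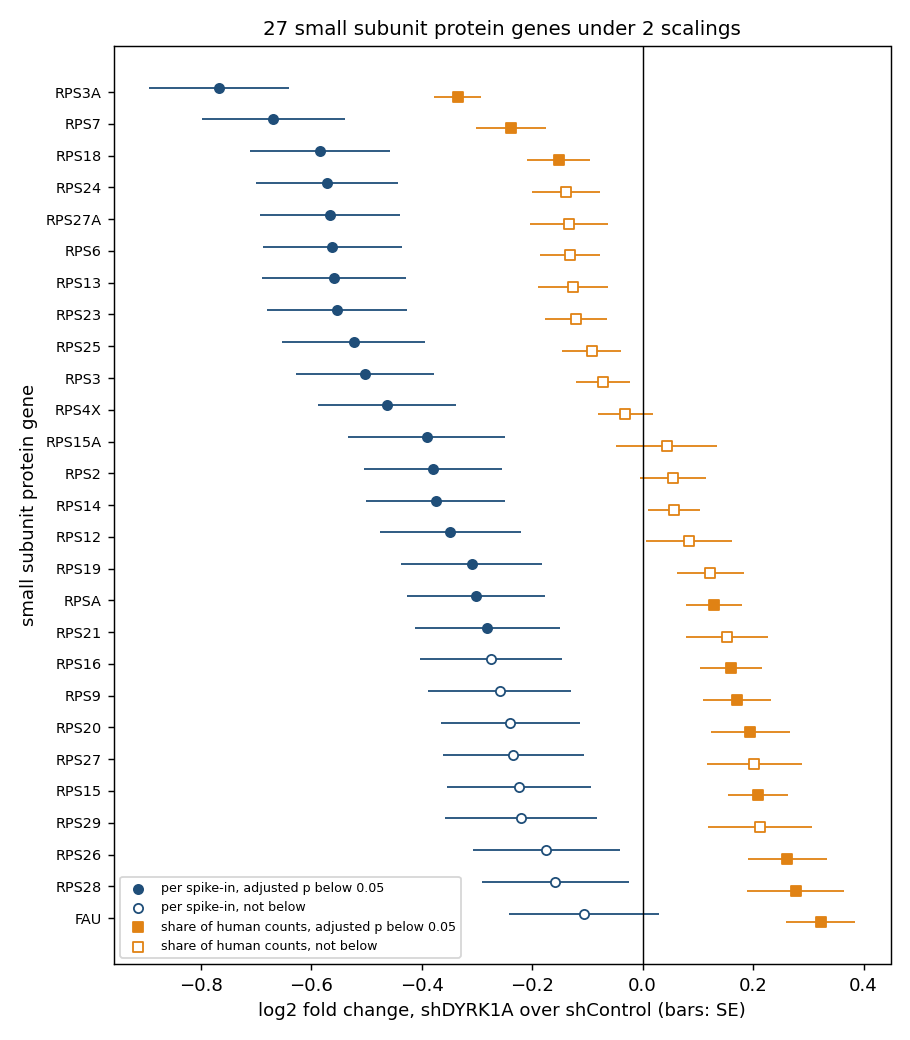
Log2 fold change (shDYRK1A over shControl, horizontal axis, bars SE) of 27 of the 31 tested genes per spike-in (circles) and as a share of human counts (squares), with filled symbols for an adjusted p below 0.05 in edgeR. The order from RPS3A at the top to FAU at the bottom is the same on both scales. All circles lie below 0, while 11 squares lie below it and 16 above.

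The last comparison looked at the make-up of the subunit alone, with each library scaled by the summed counts of the 32 genes. On this scale, which the genes themselves set, only departures from one another can be seen. RPS3A fell from 5.35, 5.49 and 5.30% of small subunit counts in shControl to 4.36, 4.07 and 4.44% in shDYRK1A, a log2 fold change of -0.33 (SE 0.06, adjusted p = 7.62e-04). RPS7 went from 2.95, 2.68 and 2.95% to 2.45, 2.43 and 2.41% and passed the test as well. In all 3 genes (9.68% of 31) were lower, beside 13% of all genes tested on the same scale.

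FAU rose from 0.504, 0.477 and 0.512% of small subunit counts to 0.632, 0.628 and 0.612%, a log2 fold change of 0.33 (SE 0.08, adjusted p = 0.00590), and RPS28 from 0.844, 0.808 and 0.827% to between 0.915 and 1.09%. RPS15, RPS20, RPS26 and RPS27 were among the 7 higher genes (22.6%), beside 17.7% of all genes. The higher genes numbered 1 with the geometric mean of the members as the scale, 3 with no filter beyond 1 count and 4 with the replicate block. Their number also rested on single libraries, running from 0 without shControl-1B (6 at an unadjusted p below 0.05) to 13 without shDYRK1A-1B, and RPS3A was the only gene called in all 6 fits. It was 3 without shControl-1A, 1 without shControl-1C and 2 without shDYRK1A-1A. The number of lower genes ran from 1 without shControl-1A or 1C to 9 without shDYRK1A-1B. No share of all genes called under these alternatives is set beside the counts. Their swing therefore cannot be read as particular to the subunit.

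The composition was nevertheless similar within each group. Shares of the subunit did not overlap between the groups for 24 of the 31 genes (77.4%), 11 of them lower, beside 21.5% of all genes, and 13 higher, beside 25.6%. Among the large subunit genes on the same scale it was 24 of 45 tested (53.3%), 12 lower and 12 higher. Genes outside the subunit carry on this scale the spread of the members' sum as well. Of the 32 genes' counts, between 1.42 and 2.91% would have to be moved from some genes to others to turn one shControl library into another, and between 1.18 and 2.10% to turn one shDYRK1A library into another. Between a shControl and a shDYRK1A library it was 4.03 to 5.65% over the 9 pairs.

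**Figure D4:**
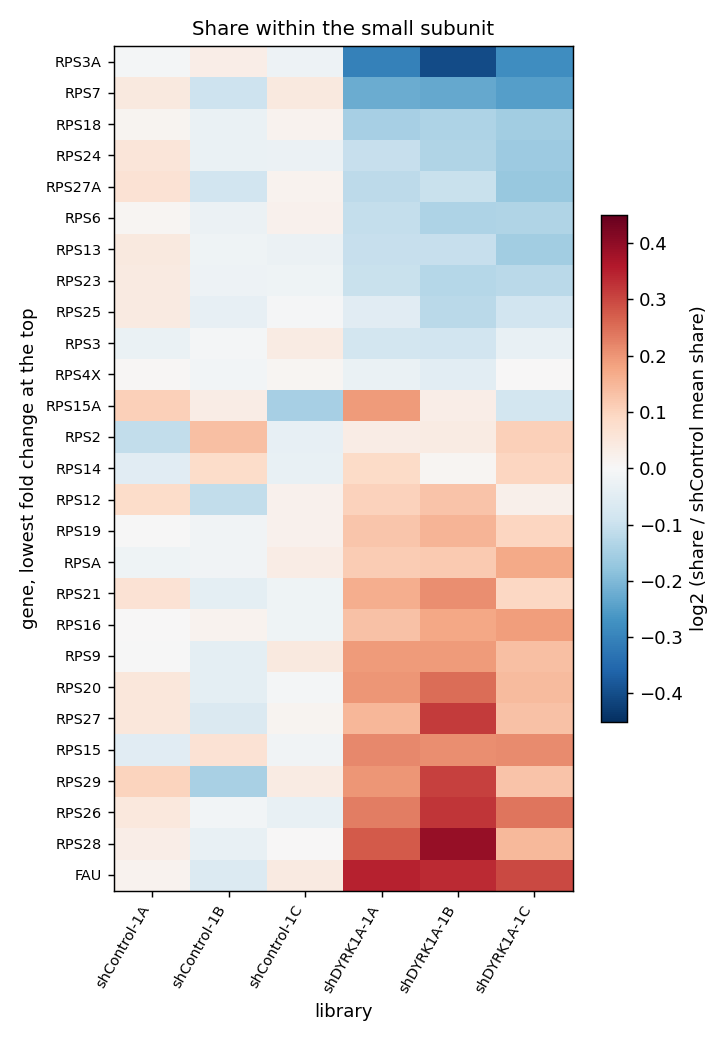
Share of each of 27 of the 31 genes in the summed small subunit counts of a library, as log2 of the ratio to the shControl mean (colour, blue lower and red higher), with genes ordered by their spike-in fold change. The 3 shDYRK1A columns resemble one another, with RPS3A at -0.40 in shDYRK1A-1B the deepest blue and RPS28 at 0.39 in the same library the deepest red.

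Coding length and level were set beside the order of the genes within the subunit. Across the 31 tested genes the spike-in log2 fold change had a Pearson correlation of -0.44 (Spearman -0.51) with coding length and of -0.49 (Spearman -0.53) with the log2 of the mean CPM. On the within-subunit scale and without RPS3A, the Pearson correlation with coding length was -0.36 over 30 genes. CPM is not divided by length, and the 2 features were not separated. Genes share libraries and size factors and are not independent replicates, so these are descriptions. Over all 9697 genes the correlation with the mean level was -0.04, and none with coding length was computed. The filter on low values had used that level and left out RPS10. The level of RPS10, 1.54 CPM and the lowest of the set, is uncertain because of the exon bases and pseudogenes described above. Its unfiltered log2 fold change of -1.07 was therefore not set against the trend. The longest coding sequences, of RPSA (885 bases) and RPS2 (879 bases), did not follow the trend, with -0.30 and -0.38. RPS25 (375 bases) and RPS24 (391.5 bases) did not follow it either, with -0.52 and -0.57.

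**Figure D5:**
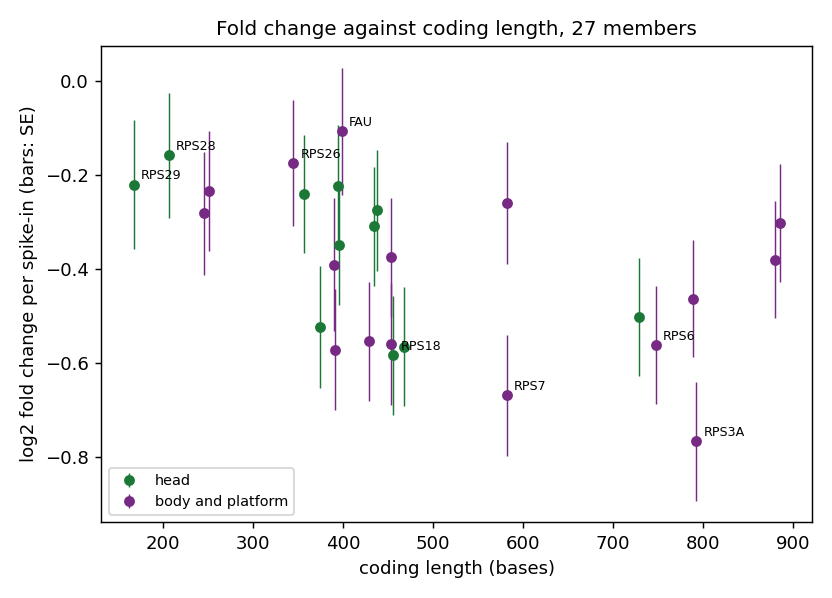
Spike-in log2 fold change (vertical axis, bars SE) against coding length in bases for 11 head genes and 16 body and platform genes, with 8 genes named. Short genes such as RPS29 (168 bases) and RPS28 (207 bases) lie nearer to 0 than RPS3A (792 bases), and the 2 longest lie above the trend. RPS25 (375 bases) and RPS24 (391.5 bases) lie below it, at -0.52 and -0.57.

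Genes that act on the small subunit were read beside its own. RACK1, a scaffold protein bound to the head of the subunit that is not named as an RPS gene, had a log2 fold change of -0.59 (adjusted p = 1.35e-05) with the spike-in and -0.16 (adjusted p = 0.00910) as a share of human counts. Of 32 listed factors that mature or recycle the small subunit 31 were tested, 22 were lower with the spike-in (71.0%, beside 63.4% of all genes) and the other 9 did not pass. As a share of human counts 8 were lower and 8 higher (25.8% each), near the 24.8% and 30.2% of all genes. ABCE1, which splits ribosomes after termination, had the lowest value with the spike-in (-0.79, adjusted p = 9.73e-08) and TSR1, a GTPase-like factor of late maturation, also fell (-0.73, adjusted p = 8.19e-07). CSNK1D, a kinase that acts on the late factor LTV1, was at 0.01 with the spike-in (adjusted p = 0.938) and 0.44 as a share (adjusted p = 5.65e-06).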

How the data were processed

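Messenger RNA of 6 T98G libraries (3 shControl, 3 shDYRK1A) was sequenced by the authors as stranded, paired-end poly(A) libraries and aligned with STAR to hg38 and dm3, per the labels. The version of STAR is not given in the sources used here. The authors deposited raw counts per gene for each library, and a table of normalised signal, in which the counts are divided by a size factor that the study derived from the Drosophila reads. Another table holds the authors' own DESeq2 comparison (fold changes and p-values) and was not used. No per-sample column was left unmatched (0).

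Size factors were taken as raw count divided by normalised signal. Genes with a mean above 10 CPM after spike-in scaling were kept (9697 genes). edgeR 4.0.16 (glmQLFit and glmQLFTest, robust) was run in R 4.3.3 on raw counts with 3 scalings: spike-in size factors, human count totals, and the summed counts of the 32 genes. Every p-value was adjusted by the Benjamini-Hochberg method over all genes tested, with calls made below 0.05. The SE equals the size of the log2 fold change over the root of its F statistic. Coding length and shared exon bases came from GENCODE v29, promoter windows from RefSeq. Named genes were the 4 lowest and 4 highest by spike-in fold change, with RPS6 and 1 other gene, and some of the genes of the set are not reported here by name. Genes, lists and tests were chosen with earlier results of these data known. Alternatives were DESeq2 1.42.0, other filters and scalings, the replicate letter as a block, and each library left out. The fit was tested on simulated data.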

Additional observations from a re-analysis of the deposited data

How the results depend on the processing

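The number of genes lower with the spike-in was 18 to 22 under other filters, DESeq2 and the replicate block. It was 4 when scaled by human counts, and 12 to 30 when 1 library was left out, with no share of all genes set beside it. With a log2 fold change below -0.7 as well it was 1, beside 1386 of all 9697 genes. On the share of human counts, with 4 lower and 9 higher, the lower genes numbered 9 with no filter beyond 1 count and 2 to 12 with a library left out. The higher genes numbered 5 under TMM and under median-of-ratios scaling and 4 to 13 with a library left out. Relative to the subunit, with 3 lower and 7 higher, leaving out a library gave 1 to 9 lower and 0 to 13 higher. There the higher genes numbered 3 with no filter beyond 1 count, 1 with the geometric mean of the members as the scale and 4 with the replicate block. The labels do not say what same-lettered libraries share beyond the letter. The deviations of such libraries from the group means correlated at 0.15 (1A), 0.07 (1B) and 0.13 (1C), and each library correlated best with its own letter. The replicate block left 21 lower with the spike-in, 4 lower and 8 higher on the share, and 2 lower relative to the subunit. Apart from the fold threshold, no share of all genes is set here beside the counts under other settings. How far these counts moved therefore cannot be read as particular to the subunit.

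Scaled by human counts, the log2 fold changes turned to 0.21 for RPS29, 0.26 for RPS26, 0.28 for RPS28 and 0.32 for FAU, by construction of the scale. The median of the members minus that of all genes (0.03) was between -0.04 and 0.09 with a library left out. The ratio of small to large subunit counts differed by -0.0013 between groups, and the difference of mean log2 counts, another quantity, by 0.046. Marked minus other genes (0.06) was 0.0074 by means and 0.055 to 0.12 with a library left out. Divided by an exact motif in the promoter window instead, which only 2 genes held, it was -0.074. Why these values moved was not tested. Depth did not limit the 31 tested genes, the lowest of which, RPS15A, had a mean of 70.6 CPM. RPS10, at 1.54 CPM, was left out by the filter, and its level is uncertain.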

Other observations

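Outside the ribosomal protein genes, the 5 genes past the filter whose CPM followed the summed share of the small subunit genes most closely over the 6 libraries were TMEM208 (Pearson r = 0.99), PSMB1 (0.99), RCOR2 (0.97), CDC42EP2 (0.97) and TMSB10 (0.97). In each of them shDYRK1A-1B was the highest of the 6 libraries, as it was for the summed share, so the likeness rests in part on that library. They were picked as the highest of all genes, and no p is given.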
